A study of Mus musculus with 12 samples.

Results

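The telomere-proximal ends of the mouse autosomes were examined as regions of accessible chromatin. A peak was counted as a member when its summit, the base with the most fragments, lay within 3 Mb of the largest peak coordinate found on its chromosome over all 12 deposited peak lists, for chromosomes 1 to 19. This gave 15362 members among the 438517 peaks of the 12 lists. The ends hold 56.6 Mb of the 2395.9 Mb of autosomal sequence without gaps (2.36%) in mm10, the build of the files, and 741 of the 20807 protein-coding autosomal genes (3.56%).

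The assay was ATAC-seq, in which the Tn5 transposase cuts and tags DNA that is not wrapped or packed away, so that a pile of short fragments marks an accessible site. The cells were male mouse embryonic stem cells (ESCs), grown with serum and LIF, of 2 genotypes, wild-type (WT) and Suv39h dn, a line that lacks both Suv39h1 and Suv39h2. Each genotype was represented by 1 line. Each was prepared in 3 ways, with 2 libraries per group: as asynchronous cells, as mitotic cells collected by shake-off after 6 h in 0.1 µg/ml demecolcine, and as sorted chromosomes, which were released from such mitotic cells into a polyamine buffer, labelled with a Hoechst dye and chromomycin A3, and purified by flow cytometry. Demecolcine was therefore shared by the mitotic cells and the sorted chromosomes and absent from the asynchronous cells. The labels do not say that the 2 libraries of a group came from separate cultures, so the p-values below measure the spread between these libraries, which may be technical.

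Mouse chromosomes carry the centromere close to one tip, at the low coordinates, and a long arm that runs to the distal telomere at the high coordinates. Telomeres are arrays of the hexamer TTAGGG bound by the shelterin proteins, which hide the tip from the DNA damage response. SUV39H1 and SUV39H2 place the trimethyl mark on lysine 9 of histone H3 (H3K9me3) that is read by HP1 proteins, and they act mainly at pericentric satellite DNA and also at telomeres.

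The label of the ends was first checked against the sequence. On 17 of the 19 autosomes the last called peak ended 10 bp or less from the last sequenced base before the final gap of the assembly, a gap that stands for the unsequenced telomere. The exceptions were chromosome 4, where the last peak ended 873 bp before that base, and chromosome 9, where it ended 14275 bp before it. On those 17 chromosomes the sequence under the outermost peak was the telomere repeat itself.

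Away from the arrays the ends also held sites with no repeat unit. Examples of 2 kinds are shown, from the plus strand of the mm10 (GRCm38) reference and with no capitals because none of the motifs searched lies in them: a site on chromosome 19 that was called in all 12 libraries, and a site on chromosome 6 that was called in the 4 asynchronous libraries only.

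Site in all libraries, chr19:61267020-61267219: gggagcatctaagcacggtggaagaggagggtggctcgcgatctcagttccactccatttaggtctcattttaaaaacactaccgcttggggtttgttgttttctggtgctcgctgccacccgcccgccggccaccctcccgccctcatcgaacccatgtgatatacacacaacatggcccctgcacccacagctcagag
Site in asynchronous ESCs, chr6:149131202-149131401: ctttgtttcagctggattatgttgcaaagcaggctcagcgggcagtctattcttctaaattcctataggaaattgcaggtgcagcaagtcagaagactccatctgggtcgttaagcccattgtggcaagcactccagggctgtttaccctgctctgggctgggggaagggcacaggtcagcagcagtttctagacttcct

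The lists differed widely in length, from 1746 peaks in Suv39h dn mitotic library 1 to 80602 in Suv39h dn asynchronous library 2. The mitotic lists were the shortest (1746 to 14328 peaks), and a weak site that is missing from a short list cannot be told apart from a closed one. Peaks within 1 kb of the start sites of 10 ESC marker genes were present for 5 to 9 of them in the asynchronous libraries, for 4 to 8 in the sorted chromosomes and for 3 to 5 in the mitotic libraries, with the exception of Suv39h dn mitotic library 1, which had none. Of 6 fibroblast markers, 0 to 2 had such a peak in any library.

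The arrays were the most constant feature of the ends. Peaks with summits in the ends were merged into 7953 regions over the 12 lists, of which 62.2% were called in 1 library only and 35 in all 12. Those 35 are 0.44% of the end regions, where 0.154% of all merged autosomal regions were called in all 12 lists. Of the 35, 18 hold 4 or more TTAGGG units in tandem (on either strand), 6 others have their strongest summit within 1 kb of a start site, and 11 have neither. Arrays within 1 kb of the last peak accounted for 16 of the 18, one at each of 16 chromosome ends. The chromosome 15 end, whose last 1000 bases hold 11 TTAGGG units, had a peak there in WT sorted-chromosome library 2 alone. At the ends of chromosomes 4 and 9, where the last 1000 bases hold 0 and 6 units, no library had one.

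Peaks with 4 or more tandem units numbered 18 to 22 per library in the ends, whatever the length of the list. They made up 0.846% to 2.84% of the end peaks in asynchronous ESCs, 0.787% to 1.17% in sorted chromosomes and 3.91% to 7.76% in the mitotic libraries other than Suv39h dn mitotic library 1, where they were 22.2%. In the rest of the autosomes such peaks were 0.0828% to 3.34% of a list, so that the share was higher in the ends in each of the 12 libraries. How reads that match several places were assigned is not given in the sources used here. Arrays on different chromosomes share their sequence, so the signal of one array cannot be assigned to one end, and the 16 arrays are not independent measurements.

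The strength of the arrays differed between preparations. Fold enrichment is the deposited ratio of fragments at a summit to the local background, with a constant added to both. Where the background is low, the fold mainly follows the number of fragments, so it is not fully corrected for differences between libraries. At the array of chromosome 12 it was 21.7 and 22.5 in the WT asynchronous libraries, 22.1 and 23.2 in Suv39h dn asynchronous, 18.5 and 18.5 in WT mitotic, and 19 and 18.3 in Suv39h dn mitotic libraries. In the sorted chromosomes it was 31.8 and 27.3 for WT and 29.8 and 29.0 for Suv39h dn. Each of the 4 sorted-chromosome libraries lay above each of the other 8 there.

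Over the 16 arrays the median fold was 16.2 to 21.7 in asynchronous, 16.3 to 19.2 in mitotic and 29.8 to 32.8 in sorted-chromosome libraries. Because the fold depends on a local background, the whole fragments at each summit were also recovered from the fold and the p-value and set against the lowest background of the library. The mean over the 16 arrays was then 138 and 97.3 in the WT and 153 and 109 in the Suv39h dn asynchronous libraries. It was 111 and 87.9 in the WT and 133 and 101 in the Suv39h dn mitotic libraries. In the sorted chromosomes it reached 301 and 228 for WT and 250 and 238 for Suv39h dn. The group means were 124 ± 25.7, 108 ± 19.2 and 254 ± 32.6 (SD, n = 4 each).

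Sorted chromosomes were therefore above asynchronous ESCs by 1.05 and above mitotic ESCs by 1.24 on the log2 scale, with an adjusted p of 0.0429 for both (exact two-sided permutation test over the 70 splits of 8 libraries, Benjamini-Hochberg over 3 pairs, smallest unadjusted p 0.0286). Mitotic and asynchronous ESCs differed by -0.19 (unadjusted exact permutation p = 0.371) and their values overlapped. Suv39h dn differed from WT by 0.09 (p = 0.546, exact permutation test of genotypes within preparations), with overlapping values. This measure was added after the data had been seen.

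The same measure was taken at other regions called in all 12 libraries. At the 17 end regions without the repeat it was 161 ± 35.7 in asynchronous, 169 ± 18.2 in mitotic and 161 ± 25.2 in sorted-chromosome libraries, with overlapping values. At 276 interior regions without the repeat it was 198 ± 46.8, 197 ± 13.7 and 163 ± 16.4, and the 4 sorted-chromosome libraries (139 to 175) lay below the 4 mitotic ones (188 to 217), which was not tested. Relative to the 17 end regions the arrays remained higher in sorted chromosomes, by 1.03 against asynchronous and 1.32 against mitotic ESCs (adjusted p = 0.0429 for both, exact permutation test). At 36 interior regions with the repeat, outside the ends, the level was 90.6 to 135 in asynchronous, 88.5 to 120 in mitotic and 187 to 247 in sorted-chromosome libraries. Relative to these the arrays at the tips differed by 0.12 between sorted chromosomes and asynchronous ESCs and by 0.19 between sorted chromosomes and mitotic ESCs (adjusted p = 0.214 and 0.171, exact permutation test). The increase in sorted chromosomes was thus measured at interior TTAGGG tracts as well as at the tips. These tracts share the repeat with the arrays, and how reads with several matches were placed is not given. Tips and interior tracts are therefore not independent measurements.

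**Figure D1:**
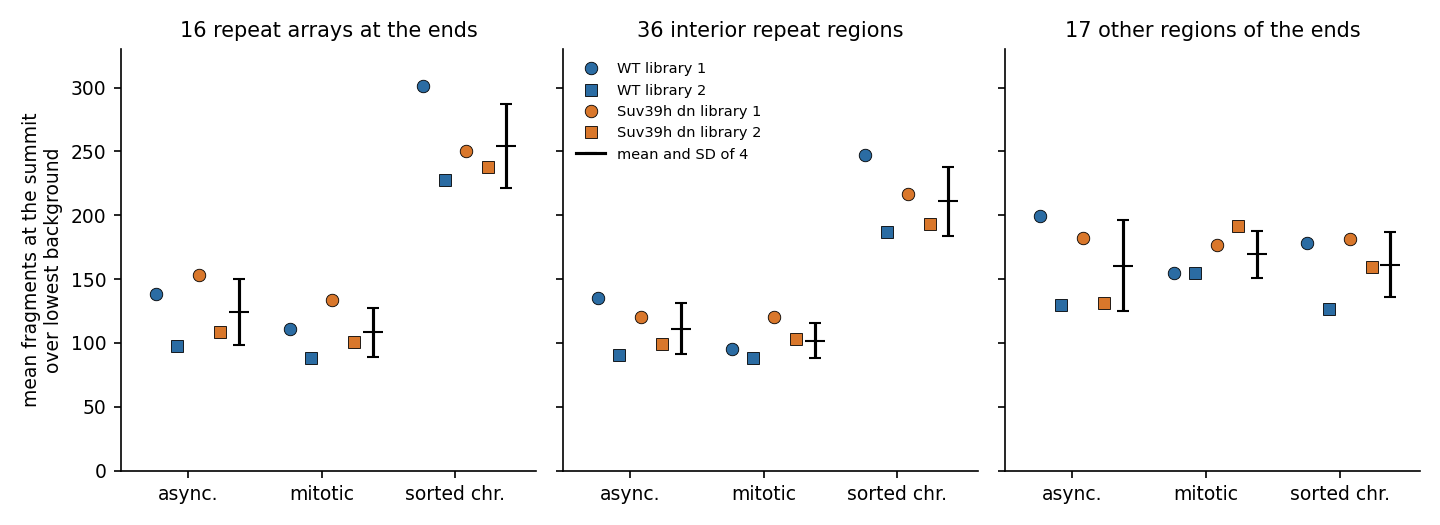
Mean fragments at the summit over the lowest background of the library (y axis) for 16 TTAGGG arrays at chromosome ends, 36 interior repeat regions and 17 other end regions (panels), with 1 point per library by preparation and genotype and the mean ± SD of the 4 libraries of each preparation. At the arrays the 4 sorted-chromosome libraries lie between 228 and 301, above the asynchronous (97.3 to 153) and mitotic libraries (87.9 to 133), the interior repeats show the same order, and at the other end regions the preparations overlap.

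Across the whole 3 Mb, the share of a peak list that fell in the ends was lowest in asynchronous ESCs. It was 3.31% and 3.07% in the WT asynchronous libraries (740 and 1746 peaks) and 2.97% and 2.93% in the Suv39h dn asynchronous libraries (745 and 2365 peaks). The mitotic libraries gave 3.77% and 3.44% for WT (245 and 458 peaks) and 4.64% and 3.57% for Suv39h dn (81 and 511 peaks). The sorted chromosomes gave 3.49% and 4.17% for WT (1619 and 2796 peaks) and 3.68% and 4.16% for Suv39h dn (2188 and 1868 peaks). All 4 asynchronous libraries lay below all 8 of the others, and mitotic and sorted-chromosome values overlapped. This order was not particular to these ends. The centromere-proximal 3 Mb, counted from the first peak of each autosome, held 2.81% to 3.57% of the asynchronous lists. There the mitotic lists had 3.97% to 8.88% and the sorted-chromosome lists 4.31% to 4.96%.

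The group means were 3.07% ± 0.17, 3.85% ± 0.541 and 3.88% ± 0.343 (SD, n = 4 each). Mitotic ESCs exceeded asynchronous ESCs by 0.32 on the log2 scale and sorted chromosomes exceeded them by 0.33 (adjusted p = 0.0429 for both, exact permutation test over 70 splits), and sorted chromosomes and mitotic ESCs differed by 0.01 (adjusted p = 0.971). Over the 3 preparations together the SD of the means was 0.15 (log2, exact permutation p = 0.0311). Within WT the differences from asynchronous ESCs were 0.18 for mitotic cells and 0.26 for sorted chromosomes, and within Suv39h dn 0.47 and 0.41, where 2 libraries against 2 cannot give a p below 0.333.

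The order turned around when the lists were made equally long. With each list cut to its 1746 strongest peaks the end share was 5.10% and 5.56% in the WT and 5.78% and 5.56% in the Suv39h dn asynchronous libraries. It was then 4.64% and 5.33% in the WT mitotic, 4.64% and 5.10% in the Suv39h dn mitotic, 4.52% and 5.38% in the WT and 4.12% and 4.87% in the Suv39h dn sorted-chromosome libraries. The log2 differences from asynchronous ESCs became -0.16 for mitotic cells and -0.22 for sorted chromosomes (adjusted p = 0.129 for both, exact permutation test). Among the strongest peaks the values of the preparations overlapped, with the highest mean in asynchronous ESCs. In the full lists, leaving out single libraries gave differences of 0.23 to 0.37 for mitotic cells and 0.30 to 0.38 for sorted chromosomes. Both adjusted p-values rose to 0.0857 (exact permutation test) when any 1 of the 4 asynchronous libraries or Suv39h dn mitotic library 1 was the one left out.

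**Figure D2:**
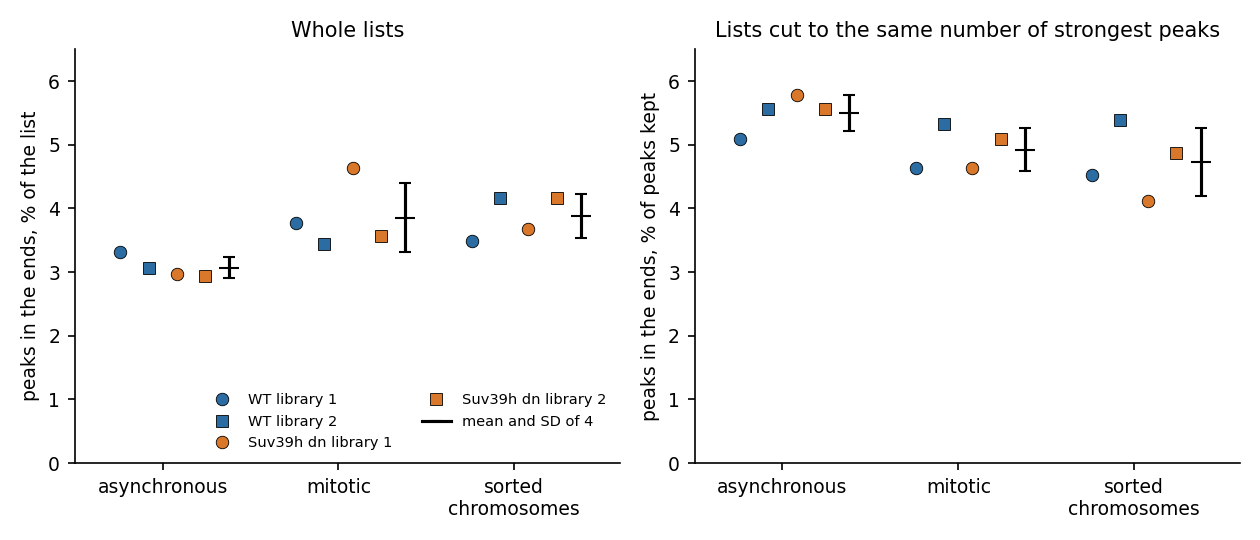
Share of each library's peaks with a summit in the ends, in percent (y axis), in the whole lists (left) and in lists cut to the 1746 strongest peaks (right), with 1 point per library by preparation and genotype and the mean ± SD of the 4 libraries of each preparation. In the whole lists the asynchronous libraries (2.93% to 3.31%) lie below the mitotic (3.44% to 4.64%) and sorted-chromosome libraries (3.49% to 4.17%), and in the cut lists the values of the preparations overlap.

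Between genotypes, both Suv39h dn shares lay below both WT shares in asynchronous ESCs, while the values overlapped in mitotic ESCs and in sorted chromosomes. The log2 difference in end share was 0.03 (exact permutation p = 0.741), made of -0.11 in asynchronous, 0.18 in mitotic and 0.04 in sorted-chromosome libraries. Leaving out single libraries moved it between -0.03 and 0.10. The number of peaks in the ends relative to the centromere-proximal 3 Mb, where the first peaks follow the centromeric gap, was 0.964 and 1.09 in WT against 0.833 and 1.02 in Suv39h dn asynchronous libraries. It was 0.806 and 0.866 in WT against 0.523 and 0.868 in Suv39h dn mitotic libraries, and 0.811 and 0.944 in WT against 0.781 and 0.839 in Suv39h dn sorted chromosomes. The difference between genotypes was -0.19 on the log2 scale (p = 0.176, exact permutation test). It was -0.31 without Suv39h dn mitotic library 2 and -0.07 without Suv39h dn mitotic library 1, the shortest list. Between preparations, this ratio differed from that of asynchronous ESCs by -0.38 in mitotic cells and -0.21 in sorted chromosomes (log2). The adjusted p was 0.129 for both (exact permutation test).

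Per megabase, peaks were denser in the ends than in the rest of the autosomes in all 12 libraries. The ratio of densities was 1.36 ± 0.0737 in asynchronous, 1.70 ± 0.253 in mitotic and 1.72 ± 0.149 in sorted-chromosome libraries (SD, n = 4 each), and its log2 mean over the 12 libraries was 0.66 (p = 0.000488, the smallest that an exact permutation test over the signs of 12 libraries can give). The ends are also richer in genes, with 13.1 protein-coding genes per Mb against 8.58 in the rest. The share of peaks within 1 kb of a start site was higher in the ends in 10 of 12 libraries, with a mean difference of 0.416 percentage points (p = 0.958, exact sign permutation test). Without Suv39h dn mitotic library 1 that difference was 2.38 points (exact permutation p = 0.00195). The median GC content around the summits was higher in the ends in 7 of 12 libraries, with a mean difference of 0.207 points (exact permutation p = 0.624).

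CTCF is the zinc-finger protein that anchors chromatin loops. The core of its motif, searched on either strand as CCA, AG and GGC with any 2 bases between the parts, was found within 100 bases of 7.84% and 13.7% of the end summits in the WT and 9.66% and 13.8% in the Suv39h dn asynchronous libraries. The mitotic libraries gave 5.71% and 9.17% for WT and 6.17% and 9.98% for Suv39h dn. In the sorted chromosomes the share was 1.54% and 1.82% for WT and 1.92% and 1.82% for Suv39h dn. The sorted chromosomes lay below all other libraries, and in the rest of the autosomes the share was likewise 1.38% to 1.59% there and 7.96% to 13.3% in the other libraries. A match of letters is not a measurement of binding.

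The excess in the ends was not spread evenly over the 3 Mb. Densities are given relative to the autosomal mean of the same library. In the outermost 10 kb, which hold the arrays, each library had 16 to 21 peaks, so that the density was 6.89 ± 3.86 (3.43 to 11.7) in asynchronous, 50.5 ± 56.0 (16.3 to 134) in mitotic and 4.37 ± 0.765 (3.5 to 5.11) in sorted-chromosome libraries (SD, n = 4 each), and followed the length of the list. The mitotic mean was 22.8 ± 9.52 without Suv39h dn mitotic library 1, the shortest list. From 10 to 100 kb the density was 6.91 ± 4.08 in mitotic, 2.36 ± 0.559 in asynchronous and 0.962 ± 0.203 in sorted-chromosome libraries. The 3 preparations did not overlap (3.93 to 12.8, 1.67 to 3.01, and 0.716 to 1.18). Over the mitotic and asynchronous libraries this density also fell with list length, from 12.8 at 1746 peaks to 1.67 at 80602 peaks. It rested there on 15 to 89 peaks per library, and preparation and list length cannot be told apart between these libraries. From 2 to 3 Mb the order was different, with 2.02 ± 0.18 in sorted chromosomes against 1.23 ± 0.0428 in asynchronous and 1.24 ± 0.10 in mitotic ESCs. Sorted chromosomes kept a density of 1.96 from 3 to 6 Mb and 1.77 from 6 to 10 Mb, where asynchronous ESCs had 1.19 in both bins and mitotic ESCs 1.34 and 1.11. These bins were described without a test.

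**Figure D3:**
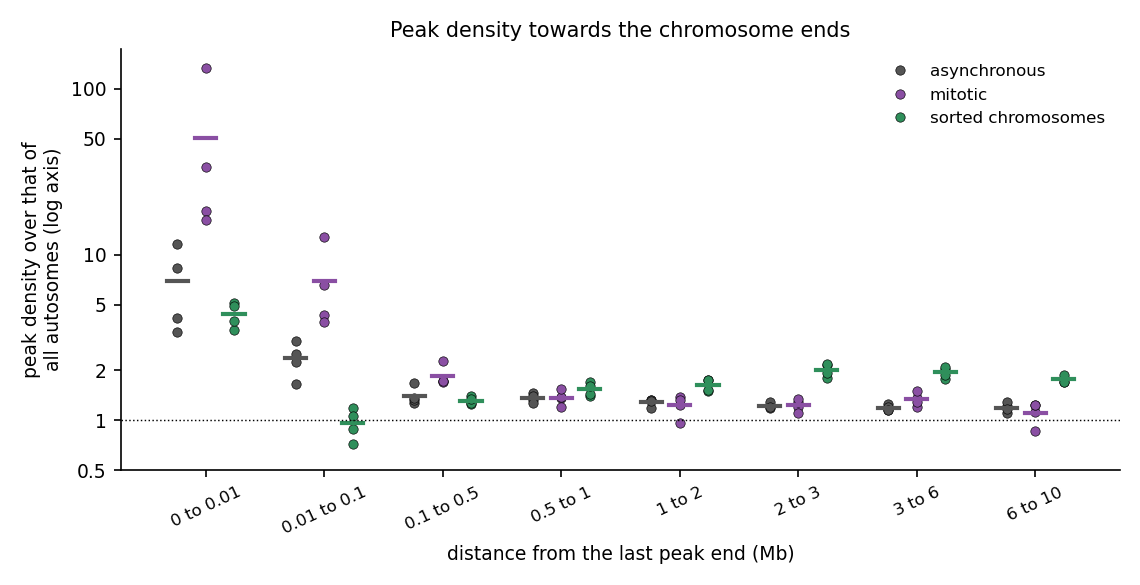
Peak density relative to the autosomal mean of the same library (y axis, log scale) against distance from the last peak of the chromosome, in bins over the 19 autosomes (x axis), with 1 point per library and a line at the mean of the 4 libraries of each preparation. Mitotic libraries are highest within 100 kb of the tip, and sorted chromosomes are highest from 2 to 10 Mb.

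A change of the 3 Mb limit therefore changed the comparison. With 1 Mb, mitotic ESCs exceeded asynchronous ESCs by 0.70 and sorted chromosomes fell below mitotic ESCs by 0.79 on the log2 scale (adjusted p = 0.0429 for both, exact permutation test). Over the mitotic and asynchronous libraries the 1 Mb share ranged from 3.04% in the shortest list (1746 peaks) to 1.02% in the longest (80602 peaks). Equal list lengths were not compared at 1 Mb, so list length and preparation cannot be told apart there. With 10 Mb, sorted chromosomes exceeded asynchronous ESCs by 0.55 and mitotic ESCs by 0.40, and mitotic ESCs exceeded asynchronous ESCs by 0.14 (adjusted p = 0.0286 for the 3 pairs, exact permutation test). Without the outermost 10 kb and its arrays, the differences from asynchronous ESCs were 0.21 for mitotic cells and 0.34 for sorted chromosomes (adjusted p = 0.0429 for both).

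Single chromosome ends differed in peak density. As the mean over the 12 libraries, the end of chromosome 11 had 2.63 times the autosomal peak density, that of chromosome 10 had 2.44 times and that of chromosome 15 had 2.14 times. The lowest were the ends of chromosome 18 (0.58), chromosome 17 (0.86) and chromosome 12 (0.94). The ends of chromosomes 10, 15 and 11 also hold the most protein-coding genes, 133, 91 and 84, and those of chromosomes 17, 18 and 12 the fewest, 2, 7 and 9.

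To compare single ends with the rest of the genome, the autosomes were divided into 793 windows of 3 Mb counted from the last peak, and the share of each window was tested with limma-voom, adjusting over all windows. Between genotypes 0 of the 19 ends were called, where 0.126% of all windows were higher in Suv39h dn. With limma-voom 0 ends had an unadjusted p under 0.05, where 59 of the 793 windows had. The count was also 0 with quantile normalization, where 0 of all windows were called. The largest differences were 0.31 ± 0.204 (SE) at the end of chromosome 18 and -0.21 ± 0.17 at that of chromosome 16, with adjusted p of 0.737 and 0.754.

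Between mitotic and asynchronous ESCs 4 of 19 ends were higher, where 7.06% of all windows were, and 1 was lower, where 12.4% were. With quantile normalization 2 ends were higher and 2 lower, where 31 and 32 of the 793 windows were. The end of chromosome 11 held 0.197% and 0.193% of the WT and 0.183% and 0.169% of the Suv39h dn asynchronous peaks. It held 0.539% and 0.285% of the WT and 0.515% and 0.37% of the Suv39h dn mitotic peaks. In the sorted chromosomes the share was 0.306% and 0.451% for WT and 0.387% and 0.524% for Suv39h dn, so that every asynchronous library was below every other library. Mitotic ESCs were higher by 1.07 ± 0.219 (SE, log2; limma adjusted p = 0.0061) and sorted chromosomes by 1.13 ± 0.211 (limma adjusted p = 0.0004).

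Chromosome 4 showed the same at its end, which held 0.13% and 0.151% of the WT and 0.0997% and 0.114% of the Suv39h dn asynchronous peaks. In mitotic ESCs it held 0.185% and 0.195% of the WT and 0.229% and 0.223% of the Suv39h dn peaks, and in sorted chromosomes 0.242% and 0.298% of the WT and 0.259% and 0.31% of the Suv39h dn peaks. The differences from asynchronous ESCs were 0.79 ± 0.187 (limma adjusted p = 0.0096) for mitotic cells and 1.16 ± 0.17 (adjusted p = 0.0001) for sorted chromosomes, and no values overlapped between the preparations.

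Chromosome 12 had the end that was called lower. It held 0.179% and 0.155% of WT and 0.152% and 0.174% of Suv39h dn asynchronous peaks. In mitotic ESCs it held 0.077% and 0.135% of the WT and 0.0573% and 0.0977% of the Suv39h dn peaks. The sorted chromosomes gave 0.0841% and 0.0731% for WT and 0.104% and 0.0891% for Suv39h dn. All 8 of these libraries were below the 4 asynchronous ones. The log2 differences from asynchronous ESCs were -0.69 ± 0.23 for mitotic cells (limma adjusted p = 0.0431) and -0.91 ± 0.167 for sorted chromosomes (adjusted p = 0.0004). The mitotic call was not stable. It was lost in 11 of the 12 fits that left out 1 library (limma adjusted p up to 0.174), kept only without WT mitotic library 2, and lost with the replicate block (adjusted p = 0.0586) and with q at or under 1e-05 (adjusted p = 0.532), while the difference stayed between -0.89 and -0.54 in the 12 fits.

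On chromosome 10 the end had its highest shares in mitotic cells. Its share was 0.304% and 0.232% for WT and 0.259% and 0.213% for Suv39h dn in asynchronous ESCs. It was 0.462% and 0.345% for WT and 0.344% and 0.426% for Suv39h dn in mitotic ESCs, and 0.198% and 0.273% for WT and 0.266% and 0.305% for Suv39h dn in sorted chromosomes. Mitotic ESCs were above asynchronous ESCs by 0.68 ± 0.193 (limma adjusted p = 0.0219) and sorted chromosomes fell below mitotic ESCs by 0.65 ± 0.196 (adjusted p = 0.0179). With quantile normalization neither call held (limma adjusted p = 0.754 and 0.105). The first was lost without WT or Suv39h dn asynchronous library 2, WT mitotic library 1 or Suv39h dn mitotic library 2 (limma adjusted p up to 0.173), and the second without either of the latter 2 or without sorted-chromosome library 1 of either genotype (up to 0.159). At chromosome 15 the end was also higher in mitotic than in asynchronous ESCs, by 0.65 ± 0.201 (adjusted p = 0.0307), although Suv39h dn mitotic library 1 lay within the asynchronous range, and this call was lost in 7 of 12 fits without 1 library and with quantile normalization (limma adjusted p = 0.738). None of the 5 ends was called between mitotic and asynchronous ESCs without Suv39h dn asynchronous library 2, the longest list, where 1 of all windows was.

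Between sorted chromosomes and asynchronous ESCs 6 of 19 ends were higher, where 14% of all windows were, and 1 was lower, where 30.5% were (44.5% in either direction). Besides chromosomes 4 and 11, the higher ends were those of chromosome 7 (0.85 ± 0.179), chromosome 15 (0.78 ± 0.191), chromosome 16 (0.66 ± 0.176) and chromosome 18 (0.53 ± 0.202, limma adjusted p = 0.041), the last with overlapping values and called in 5 of 12 fits without 1 library. With quantile normalization 8 ends were higher and 6 lower. With q at or under 1e-05 the 2 ends called, both higher, were those of chromosomes 11 and 18, and chromosome 7 stood at -0.07. Of all windows 72 were then higher and 158 lower. The median log2 difference over the 19 ends was 0.33 where that over all windows was -0.14. For mitotic against asynchronous ESCs the medians were -0.03 and -0.19.

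Between sorted chromosomes and mitotic ESCs the end of chromosome 14 was the 1 that was higher (0.81 ± 0.223, limma adjusted p = 0.0107) and that of chromosome 10 the 1 that was lower, where 14.6% of all windows were higher and 14.6% lower (29.3% in either direction). With quantile normalization 3 ends were higher and 0 lower, where 122 and 129 of the 793 windows were. The chromosome 14 call was lost without WT mitotic library 2 (limma adjusted p = 0.0513). The chromosome 14 end held 0.154% and 0.12% of the WT and 0.0573% and 0.119% of the Suv39h dn mitotic peaks. It held 0.233% and 0.207% of the WT and 0.18% and 0.227% of the Suv39h dn sorted-chromosome peaks, all above the mitotic libraries.

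Across the 19 ends the log2 difference between mitotic and asynchronous ESCs correlated with the number of coding genes (Pearson r = 0.82) and with the GC content of the window (r = 0.76). For sorted chromosomes against asynchronous ESCs r was 0.48 and 0.67. Over all 793 windows the correlations with GC content were 0.57 and 0.41. These are descriptions, since the ends share the same 12 libraries and the comparisons share the asynchronous ones.

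**Figure D4:**
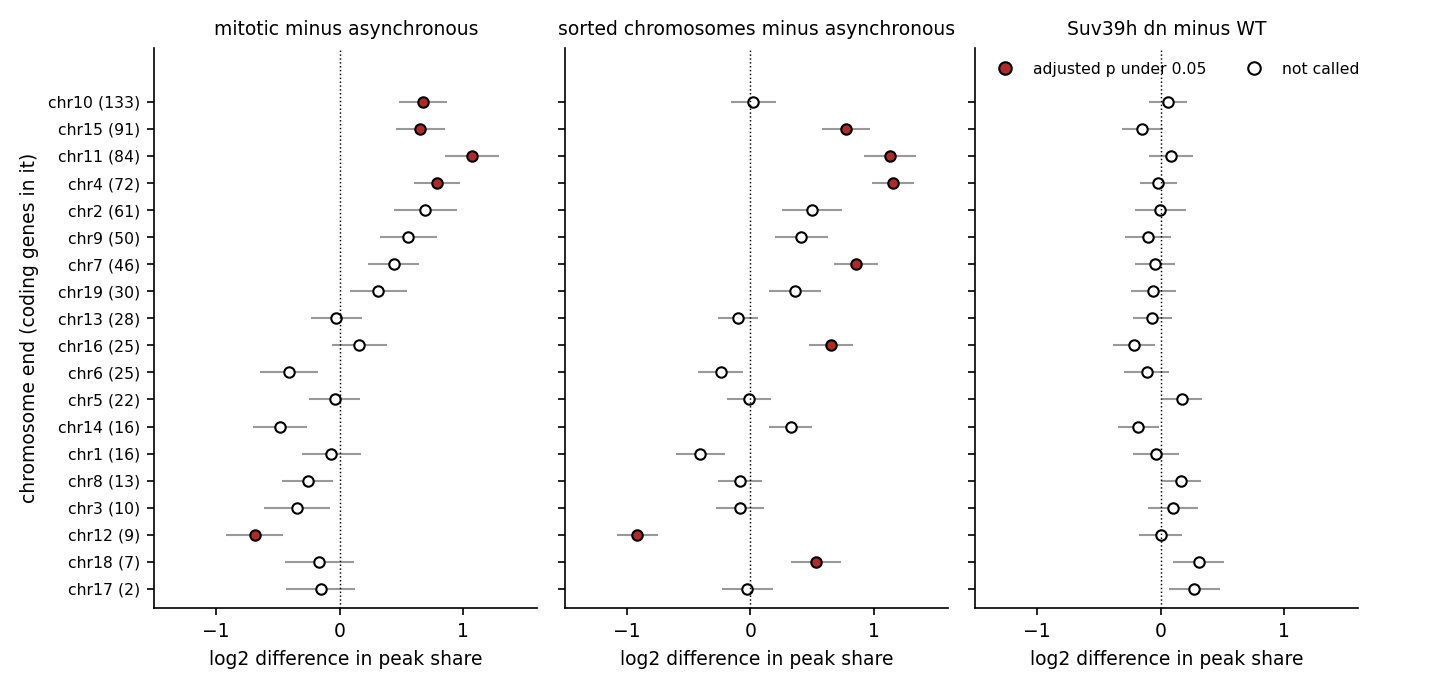
Log2 difference in peak share of each of the 19 chromosome ends (x axis, points with bars of 1 SE from limma-voom) in 3 comparisons, with the ends ordered by the number of coding genes they hold (y axis). Filled points passed an adjusted p of 0.05. The called ends of chromosomes 4, 11 and 15 lie to the right in the mitotic and sorted-chromosome panels, that of chromosome 10, the richest in genes, does so in the mitotic panel (0.68) and lies at 0.03 in the other, chromosome 12 lies to the left in both, and no end was called between genotypes.

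Of the 741 protein-coding genes in the ends, a start site was open, with a summit within 1 kb, for 33.6% and 51.8% in WT against 31.0% and 54.5% in Suv39h dn asynchronous libraries. In the mitotic libraries the share was 17.7% and 25.0% for WT and 2.43% and 29.1% for Suv39h dn. In the sorted chromosomes it was 43.3% and 61.4% for WT and 51.7% and 51.6% for Suv39h dn. Among the 20066 other autosomal genes the asynchronous libraries gave 32.0% to 56.6%, the mitotic libraries 3.81% to 30.0% and the sorted chromosomes 38.4% to 52.8%. Each sorted-chromosome library had a larger share of open start sites in the ends than elsewhere, and 1 of 4 asynchronous and 1 of 4 mitotic libraries did.

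A start site was open in all 4 sorted-chromosome libraries and in none of the other 8 for 26 end genes (3.51%), where 2.09% of all protein-coding autosomal genes showed this pattern. No end gene showed it for the asynchronous or for the mitotic libraries, where 0.341% and 0% of all genes did. Of the 26, 7 lie at the end of chromosome 15, 5 at that of chromosome 11 and 5 at that of chromosome 4. They include Hoxc4, Hoxc6 and Hoxc11 of the HoxC cluster of body-axis transcription factors, the hair and epidermal keratins Krt81 and Krt2, Acvr1b, a receptor of activin, Amhr2, the receptor of anti-Müllerian hormone, Trp73, a relative of the p53 tumour suppressor, and Dvl1, a transducer of Wnt signals.

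Gene families with 4 or more members in one end differed in this respect. The keratin genes at the end of chromosome 15 (26 genes, chr15:101347444-102032027), which encode the intermediate filaments of epithelia, had 1 open start site in WT asynchronous library 2 and none in the other 7 asynchronous and mitotic libraries. In the sorted chromosomes 7 and 13 were open in WT against 11 and 9 in Suv39h dn. The 9 HoxC genes of the same end had 1 and 3 open start sites in WT and the same numbers in Suv39h dn asynchronous libraries, and 0 or 1 in each mitotic library. In sorted chromosomes 6 and 8 were open in WT against 7 and 7 in Suv39h dn. Both families were thus above every other library in all 4 sorted-chromosome libraries. Of all end genes, 31.0% to 54.5% were open in asynchronous, 2.43% to 29.1% in mitotic and 43.3% to 61.4% in sorted-chromosome libraries.

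Families on chromosome 10 had few open start sites in every preparation. The 60 olfactory receptor genes at the end of chromosome 10 had 2 to 4 open start sites in asynchronous, 0 to 2 in mitotic and 0 to 3 in sorted-chromosome libraries. The 4 vomeronasal receptor genes of that end had none in any library. The 8 retinol dehydrogenase genes had 0 to 2 in each library. At the end of chromosome 9 the 6 genes with the symbol prefix Ccr had 0 to 2 in asynchronous, 0 in mitotic and 0 or 1 in sorted-chromosome libraries. The 4 genes with the prefix Slc at that of chromosome 11 had 1 to 3, 0 or 1, and 2 or 3.

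**Figure D5:**
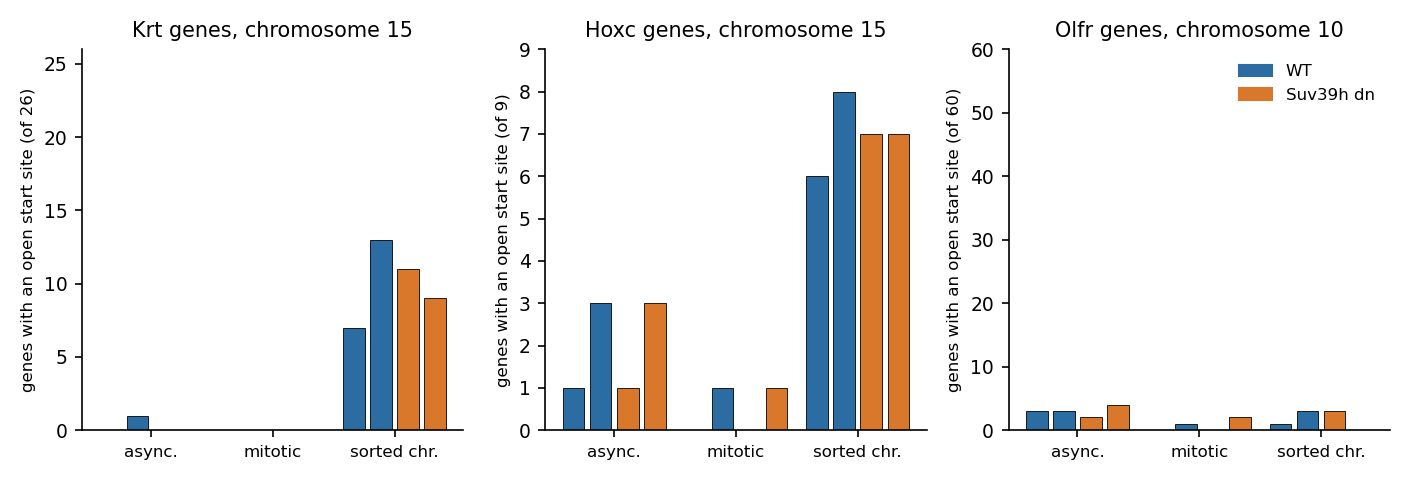
Number of genes with an open start site (y axis, up to the size of the family) in each of the 12 libraries (bars, by preparation and genotype) for 3 gene families at single chromosome ends. The 26 keratin and 9 HoxC genes of chromosome 15 have their highest counts in the 4 sorted-chromosome libraries, and the 60 olfactory receptor genes of chromosome 10 stay at 4 or fewer in every library.

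Single genes of known function were followed by lists of chromatin, genome maintenance, stem cell, cell cycle and housekeeping genes. Of the 6 chromatin genes, 3 were open in all 4 asynchronous libraries, 0 in all 4 mitotic and 2 in all 4 sorted-chromosome libraries, where 22.7%, 2.19% and 22.2% of all protein-coding autosomal genes were. Cbx5 encodes HP1α, a reader of H3K9me3, and shares its start region with Hnrnpa1, which encodes a splicing regulator. Their common peak had a fold of 7.53 and 12.6 in WT against 11.6 and 13.4 in Suv39h dn asynchronous libraries. It had 6.37 and 7.35 in WT mitotic and 8.01 in Suv39h dn mitotic library 2, was not called in Suv39h dn mitotic library 1, and had 5.05 and 9.30 in WT against 7.0 and 7.09 in Suv39h dn sorted chromosomes. With 11 of 12 libraries it was the most constant promoter of the lists. Dido1, a chromatin reader linked to differentiation, was open in 9 libraries with 1 mitotic library among them. Zbtb21, a zinc-finger repressor, was open in 8 and Prdm15, a zinc-finger regulator of pluripotency signalling, in 7, of which 0 were mitotic. Sirt7, a histone deacetylase, was open in 4 libraries and Ski, a repressor of TGF-β signalling, in 1.

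Of the 3 genome maintenance genes, 3 were open in any asynchronous, 1 in any mitotic and 3 in any sorted-chromosome library. Among all protein-coding autosomal genes 62%, 38.1% and 67.1% were. Rfc3, a subunit of the clamp loader of DNA replication, was open in 10 libraries. Its fold was 10.2 and 16 in WT against 6.75 and 17.4 in Suv39h dn asynchronous libraries, 5.34 and 9.92 in WT mitotic and 7.23 in Suv39h dn mitotic library 2. In sorted chromosomes it was not called in WT library 1 and had 4.48 in WT library 2 and 4.05 and 3.91 in Suv39h dn. The values of the sorted chromosomes were below all others at this promoter. Rtel1, a helicase that unwinds telomere loops, was open in 3 asynchronous libraries and 1 sorted-chromosome library, and Brca2, a DNA repair gene, in 1 of each.

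Of the 7 embryo and stem cell genes, 3 were open in any asynchronous, 1 in any mitotic and 6 in any sorted-chromosome library, where 62%, 38.1% and 67.1% of all protein-coding autosomal genes were. Fgf4, the growth factor that ESCs secrete and that drives them towards differentiation, was open in 3 asynchronous libraries, 1 mitotic library and all 4 sorted-chromosome libraries, with folds of 4.31, 5.16 and 4.67, of 5.90, and of 5.34, 5.39, 6.22 and 4.87. The homeobox gene Emx2 was open in 2 asynchronous and 4 sorted-chromosome libraries (5.17 to 6.39 in the latter) and the zinc-finger gene Zic2 in 2 and 3. Sox18 was open in 2 sorted-chromosome libraries, Hes5 and Tcstv1 in 1 each, and Tcstv3, whose gene lies 4757 bp from the last peak, in none.

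Of the cell cycle genes, Ccnd1, which encodes cyclin D1, was open in 3 asynchronous libraries and 1 sorted-chromosome library, and the kinase gene Cdk11b in 4 asynchronous, 1 mitotic and 2 sorted-chromosome libraries. Of the 9 housekeeping genes, 7 were open in any asynchronous, 3 in any mitotic and 9 in any sorted-chromosome library. For the 2 cell cycle genes these counts were 2, 1 and 2. Among all protein-coding autosomal genes the shares were 62%, 38.1% and 67.1%. Besides Hnrnpa1, the housekeeping gene Prdx3, a mitochondrial peroxidase, was open in 4, 3 and 1 libraries of the 3 preparations. Eif3a, a translation factor, was open in 2, 0 and 4. Actg1, which encodes a cytoskeletal actin, and Gnb1, a G protein subunit, were each open in 3 sorted-chromosome libraries and in no other. Ssu72, Ythdf1, Prpf6 and Fasn were open in 1 to 3 of the 4 sorted-chromosome libraries and 1 or 2 of the 4 asynchronous ones. Fasn was also open in 1 mitotic library. With 1746 peaks in Suv39h dn mitotic library 1, none of the listed genes was called open there.

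Regions called in a whole preparation and nowhere else were scarce. In the ends 60 regions were called in the 4 asynchronous libraries only (0.754%, where 0.914% of all merged autosomal regions were), 0 in the 4 mitotic libraries only (background 0%) and 124 in the 4 sorted-chromosome libraries only (1.56%, where 1.32% were). The chromosome 6 site printed above (region chr6:149130984-149131480, between genes) had a fold of 7.52 and 11 in WT against 8.14 and 13.2 in Suv39h dn asynchronous libraries.

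Regions called in both libraries of one genotype and in neither of the other were near the autosomal background in the ends. In asynchronous ESCs 62 of 2913 end regions were called in Suv39h dn alone (2.13%, where 2.42% of autosomal regions were) and 14 in WT alone (0.481%, where 0.76% were). In mitotic ESCs 8 of 794 were called in Suv39h dn alone (1.01% against 0.589%) and 18 in WT alone (2.27% against 2.68%). In sorted chromosomes 127 of 5726 were called in Suv39h dn alone (2.22% against 2.09%) and 180 in WT alone (3.14% against 2.71%). In each preparation the genotype with more peaks over its 2 lists had more regions alone. With 1 library of a group left out these counts rose, to as many as 967 of the asynchronous regions in Suv39h dn alone (without its library 1) and 1641 of the sorted-chromosome regions in WT alone (without its library 1), since 1 library then stood for the genotype.

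No region of the ends was called in more than 3 of the 6 Suv39h dn libraries and in no WT library, and 13 were called in 3 (0.163% of end regions, where 0.155% of all merged autosomal regions were called in 3 or more and 0.0111% in 4 or more). The first of these by its rank of fold, at chr16:95906070-95906228 in 1600002D24Rik, had a fold of 6.89 in asynchronous library 2 and of 7.51 and 7.10 in the sorted chromosomes. The next, at chr18:89688531-89688727 in Dok6, had 6.89, 5.84 and 7.10 in the same libraries. One region, at chr9:123925332-123925791 near Ccr1, a chemokine receptor gene, was called in 4 WT libraries and in no Suv39h dn library, with folds of 4.08 to 7.42, a pattern shown by 0.00798% of all autosomal regions. Another, at chr10:128094758-128094887 in Baz2a, whose product silences ribosomal RNA genes, was one of 6 end regions called in 3 or more WT libraries alone (0.0957% of all autosomal regions), with folds of 5.66, 5.65 and 6.41.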

How the data were processed

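The deposited data were 12 ATAC-seq peak lists, 1 per library, in mm10 coordinates. Per the labels and the methods of the study, the authors ran bcl2fastq 2.20.0, Trim Galore 0.4.4, Bowtie2 2.2.9, SAMtools 1.2, Picard, ATACseqQC and deepTools, kept fragments under 100 bp and called peaks in each library with MACS2. The MACS2 version and threshold and the treatment of reads with several matches are not given in the sources used here. The removal of blacklisted regions is stated and was not tested. The authors' fold enrichment is the ratio of fragments at the summit to a local background, with 1 added to both. The deposited -log10 p and -log10 q values are those of MACS2 (smallest -log10 q 1.30). The deposited score, which MACS2 derives from q, was not used. Lists hold no totals of reads. List length (1746 to 80602) was used to scale shares and is not a measure of sequencing depth. It did not follow the lowest background of a library throughout. That background was 0.204 in Suv39h dn mitotic library 1 (1746 peaks) and 0.149 in WT asynchronous library 1 (22344 peaks).

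Whole fragments at each summit were recovered from fold and -log10 p to within 0.0001 for 100% of peaks. Peaks were assigned to ends, 3 Mb windows, start sites (1 kb) and motifs (201 bases around the summit) with Python 3.11.15, numpy 2.4.6, pandas 2.3.3 and scipy 1.17.1. Shares were compared on the log2 scale by exact two-sided permutation tests over libraries (genotype within preparation, smallest p 0.00926; pairs of preparations, 70 splits; 3 preparations within genotype, 8100 arrangements; ends against rest, by signs over 12 libraries), and windows with limma-voom (limma 3.58.1, R 4.3.3, Benjamini-Hochberg over 793 windows, library size the list length). The tests were checked on simulated lists. Merged regions joined peaks that overlap by at least 1 base.

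The members, gene lists and tests were chosen with earlier results of these data known. Named ends were the 3 densest and 3 sparsest, those called in any comparison and those with the largest difference. Named regions were the 5 outermost in all libraries, the highest-ranked of 1 preparation alone and 2 of each genotype alone. Named genes were fixed lists and families of at least 4 genes in 1 end. The array level, the gene counts by preparation and 3 kinds of alternative (without the outermost 10 kb, at least 50% coverage, array level on other scales) were added after seeing the data. Alternatives fixed earlier were q at or under 1e-05, equal list lengths, limits of 1 and 10 Mb, the assembly end, start-site classes, quantile normalization, windows with a mean of at least 5 peaks, the replicate block and leaving out each library. Some sequences and regions chosen by these rules are not reported here.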

Additional observations from a re-analysis of the deposited data

Results flagged for a closer look

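In 4 of 75 tests of 1 library against the other 3 of its preparation, the library stood apart by Dixon's criterion, a rate that chance alone gives at about 1 test in 20. The median GC content of the end peaks in Suv39h dn sorted-chromosome library 1 was 56.2% where the other 3 were at 56.7%. The end of chromosome 1 held 0.344% of the peaks of Suv39h dn mitotic library 1 against 0.133% to 0.154%, and that of chromosome 15 held 0.172% against 0.293% to 0.314%. With 81 end peaks in that library, these shares stand for 6 and 3 peaks. The end of chromosome 17 held 0.0308% of the peaks of WT mitotic library 1 (2 peaks) against 0.115% to 0.12% in the others.

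At the end of chromosome 4 both Suv39h dn libraries were above both WT libraries in mitotic ESCs, by 0.0362 percentage points on average, and below both in asynchronous ESCs, with a difference of -0.0335. This difference between the preparations was not tested.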

How the results depend on the processing

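Of 396 values under alternative settings, 304 kept their direction and side of the threshold or moved little. Peak density in the ends stayed above the rest under every alternative run. The share in the ends depended on the strength of the peaks and on the limit. With q at or under 1e-05, sorted chromosomes minus mitotic became -0.32 (adjusted p = 0.0571, exact permutation test), and their telomere-proximal to centromere-proximal ratio -0.21. With equal list lengths Suv39h dn minus WT was -0.0133, where each list was cut to the shortest of its preparation. With each list cut to 1746 peaks, mitotic and sorted chromosomes minus asynchronous were -0.16 and -0.22. Sorted chromosomes minus mitotic was then -0.0638, and the value over the 3 preparations was 0.0937. With 1 Mb, sorted chromosomes minus asynchronous was -0.0915 and minus mitotic -0.79. With 10 Mb, Suv39h dn minus WT was -0.00605, sorted chromosomes minus mitotic 0.40 and the ratio for sorted chromosomes minus asynchronous 0.0922. From the assembly end, sorted chromosomes minus mitotic was -0.0193. For peaks within 1 kb of a start site, Suv39h dn minus WT was -0.0906, mitotic minus asynchronous -0.0171 and sorted chromosomes minus mitotic 0.30, and for peaks farther away the last was -0.14. Without the outermost 10 kb, Suv39h dn minus WT was -0.00306 and the GC difference 0.622. The promoter difference was -3.76 with q at or under 1e-05 and -2.43 with 10 Mb, and the GC difference -0.0445 with the former. The cause of these changes was not tested. Equal list lengths keep only the strongest peaks, so that setting alters peak strength together with list length.

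The ends called numbered 1 for mitotic minus asynchronous, 2 for sorted chromosomes minus asynchronous and 1 for sorted chromosomes minus mitotic with q at or under 1e-05, and 14 for sorted chromosomes minus asynchronous with quantile normalization. End regions in Suv39h dn alone and WT alone fell with q at or under 1e-05 to 18 and 6 in asynchronous, 3 and 8 in mitotic and 13 and 12 in sorted-chromosome libraries, and with at least 50% of the region covered to 5 for Suv39h dn alone in mitotic ESCs. An overlap of 50% of the shorter peak gives the counts already reported by construction.

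The labels do not say whether a shared replicate number stands for a shared batch. Over the windows, deviations of same-numbered libraries correlated at 0.166 in asynchronous, 0.0582 in mitotic and 0.506 in sorted-chromosome libraries. With the replicate block the end share differences stayed at 0.32 and 0.33 (adjusted p = 0.188 for both, exact permutation test). Over the 3 preparations the value stayed at 0.15 (exact permutation p = 0.0787). For mitotic minus asynchronous 3 ends were called, all higher, where 53 of all windows were. The array differences stayed at 1.05 and 1.24 with an exact permutation p of 0.125, the smallest that the block allows for a pair.

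The array level of Suv39h dn minus WT was -0.0316 relative to the end regions without the repeat. Relative to interior repeats the array differences were 0.12, 0.19 and 0.0774 over the 3 preparations.

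Leaving out each library in turn gave end share differences of -0.0298 to 0.099 for Suv39h dn minus WT, 0.23 to 0.37 and 0.30 to 0.38 for mitotic and sorted chromosomes minus asynchronous, -0.0413 to 0.105 for sorted chromosomes minus mitotic and 0.14 to 0.17 over the 3 preparations (p up to 0.0533, exact permutation test, without WT mitotic library 1, and 0.0511 and 0.0526 without WT and Suv39h dn sorted-chromosome library 2). The telomere-proximal to centromere-proximal ratio ranged from -0.312 to -0.0695 for Suv39h dn minus WT and from -0.00794 to 0.234 for sorted chromosomes minus mitotic. The promoter difference ranged from 0.0161 to 2.38 points. The ends called ranged from 0 to 5 for mitotic minus asynchronous (0 without Suv39h dn asynchronous library 2, 2 without WT asynchronous library 2 or WT mitotic library 1) and from 1 to 3 for sorted chromosomes minus mitotic. Regions in Suv39h dn alone ranged from 74 to 967 in asynchronous, 10 to 242 in mitotic and 176 to 1215 in sorted-chromosome libraries, and those in WT alone from 19 to 379, 18 to 220 and 275 to 1641. The array differences kept their calls.

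List length limits what the mitotic libraries can show, since 81 end peaks remained in Suv39h dn mitotic library 1.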

Other observations

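The X chromosome lies outside the rule for the ends, which covers the autosomes. The last 1000 bases before its final gap hold 61 TTAGGG units and carried a peak in all 12 libraries. Its fold was 16.5 and 21.7 in WT against 18.7 and 21 in Suv39h dn asynchronous libraries, and 14.9 and 16.1 in WT against 17.0 and 14.3 in Suv39h dn mitotic libraries. In sorted chromosomes it was 26.2 and 25.2 in WT against 25.0 and 23.7 in Suv39h dn. All 4 sorted-chromosome libraries were above the other 8, as at the autosomal arrays whose sequence it shares. Within 3 Mb of its last peak the X chromosome had 20 to 57 peaks in asynchronous, 9 to 18 in mitotic and 24 to 51 in sorted-chromosome libraries.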
